A study of Mus musculus with 44 samples.

Results

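The response of mouse cortical neurons without Smarcc2 to 30 min of membrane depolarization was read from 4 of the series' 44 ATAC-seq peak lists. ATAC-seq maps the DNA that a transposase can reach. The 4 lists were those titled as Smarcc2 knockout with vector at 18 days in vitro (DIV18). Of these, 2 libraries came from unstimulated wells and 2 from wells given 50 mM KCl for 30 min, and the numbers 1 and 2 are those of the titles. The cultures were primary neurons from E16.5 mouse cortex, carried a CRISPR guide against Smarcc2 and received an empty vector. All wells, depolarized ones included, had been silenced overnight with 1 µM tetrodotoxin, a sodium channel blocker, and 100 µM D-AP5, an NMDA receptor antagonist. Medium of the unstimulated wells was taken off and put back without KCl. The wells also received DNase while they were treated. The comparison groups, each with 2 unstimulated and 2 depolarized libraries, were neurons with a non-targeting guide and knockout neurons given wild-type Smarcc2 (the wild-type add-back). The knockout with Smarcc2 S586A or S586E added back entered the statistical fit and is shown for single genes. Each embryo's cortex was a biological replicate per the labels, but no label ties a library to its own embryo, so the p-values measure the spread between these libraries, which may be technical.

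Smarcc2, also called BAF170, is a core scaffold subunit of the BAF (mammalian SWI/SNF) complex, which uses ATP to slide or evict nucleosomes and so opens promoters and enhancers. Its paralog Smarcc1 can occupy the same place in the complex. Depolarization opens voltage-gated calcium channels, and calcium signaling to the nucleus activates CREB, SRF and their partners. Within minutes these factors switch on early-response genes that need no new protein: transcription factors such as Fos, Egr1 and Npas4, feedback phosphatases of the Dusp family, and the synaptic regulator Arc. Genes for secreted factors such as Bdnf and Scg2 tend to follow later.

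The promoters printed next show where the response was read. They are the 250 bases before the annotated start of 5 early-response genes whose promoter rose and of Klhdc2, whose promoter fell. Capitals mark TGACG or CGTCA, the core of the cAMP response element (CRE) to which CREB binds. Sequences are from RefSeq on GRCm38.p6, the assembly of mm10, in the 5′ to 3′ direction of the gene.
Fos, chr12:85473640-85473889, plus strand: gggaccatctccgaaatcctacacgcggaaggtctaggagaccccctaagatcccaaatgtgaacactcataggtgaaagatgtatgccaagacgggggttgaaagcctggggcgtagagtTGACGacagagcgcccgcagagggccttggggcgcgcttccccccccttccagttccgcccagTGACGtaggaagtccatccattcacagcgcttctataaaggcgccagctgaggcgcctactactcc
Nr4a1, chr15:101266596-101266845, plus strand: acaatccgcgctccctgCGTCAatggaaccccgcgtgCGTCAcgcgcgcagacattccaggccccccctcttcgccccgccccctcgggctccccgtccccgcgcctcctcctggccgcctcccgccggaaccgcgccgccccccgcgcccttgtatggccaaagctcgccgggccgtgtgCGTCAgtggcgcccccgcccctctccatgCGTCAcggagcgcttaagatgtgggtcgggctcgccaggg
Egr4, chr6:85513590-85513839, minus strand: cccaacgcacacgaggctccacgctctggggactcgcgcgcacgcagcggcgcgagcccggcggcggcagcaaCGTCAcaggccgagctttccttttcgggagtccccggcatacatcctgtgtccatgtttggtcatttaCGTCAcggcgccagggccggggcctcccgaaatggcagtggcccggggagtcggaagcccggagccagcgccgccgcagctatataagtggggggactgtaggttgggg
Npas4, chr19:4989972-4990221, minus strand: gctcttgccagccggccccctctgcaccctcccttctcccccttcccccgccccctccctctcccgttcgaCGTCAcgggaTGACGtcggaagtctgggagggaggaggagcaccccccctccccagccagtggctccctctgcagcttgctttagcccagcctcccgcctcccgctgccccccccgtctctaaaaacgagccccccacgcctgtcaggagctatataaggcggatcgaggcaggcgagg
Homer1, chr13:93307784-93308033, plus strand: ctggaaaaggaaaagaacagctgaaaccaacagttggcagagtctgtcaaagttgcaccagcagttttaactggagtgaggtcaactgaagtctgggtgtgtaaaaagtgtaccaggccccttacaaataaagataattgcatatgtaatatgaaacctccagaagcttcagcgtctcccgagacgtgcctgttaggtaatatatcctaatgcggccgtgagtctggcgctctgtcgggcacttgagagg
Klhdc2, chr12:69296431-69296680, plus strand: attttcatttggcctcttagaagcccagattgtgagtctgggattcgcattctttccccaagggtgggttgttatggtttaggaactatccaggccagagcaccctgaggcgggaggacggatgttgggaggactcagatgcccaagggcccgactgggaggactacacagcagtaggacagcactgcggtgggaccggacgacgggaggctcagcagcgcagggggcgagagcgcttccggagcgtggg

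The printed Fos promoter holds 2 such cores, that of Nr4a1 4, and those of Egr4 and Npas4 2 each. The Homer1 promoter, which lies inside the gene, and that of Klhdc2 hold none in these letters. Motifs were searched on both strands of 300 bases, from 250 before to 50 after the start. The core was found in 59.5% of the 37 promoters of early-response and late activity genes chosen for description (25 genes), in 30.5% of the 14484 promoters on a tested region and in 20.8% of all 32851 promoters. The complete element TGACGTCA, which contains the core, was found in 10.8%, 3.11% and 1.79% of these. In the same order, the CArG box of SRF was found in 13.5%, 1.16% and 1.63%, and the E-box CACGTG in 16.2%, 9.58% and 7.15%. The AP-1 motif TGANTCA was less frequent in the chosen promoters, with 2.70%, 5.70% and 7.81%. So was the EGR motif GCGTGGGCG, with 0%, 1.09% and 0.612%. Among promoters on a region that rose (387) or fell (175) in both readings described next, 37.5% and 22.9% held the core, and 6.46% and 0.571% the complete element. These are matches of letters, not sites of binding. Annotated promoters of 1 gene can overlap, as several of Egr2 did, so the same bases can count more than once.

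Accessibility was compared by rank, since the lists give no read counts. On the 19 autosomes, 223337 regions of 500 bp that do not overlap were centred on summits, and 136495 of them entered the test. Each list was sorted by the authors' −log10 p and trimmed to the same length, 133009 intervals or 178672 summits. The score of a region in a library is the log2 of that length over the rank of the best interval, or of the best summit, at the region, and 0 if none is there. A rise of 1 therefore means that a rank number was divided by 2. A score of 0 means no peak in the trimmed list, and a weaker peak may lie below the cut. An interval can span several regions and gives them all 1 rank, whereas a summit belongs to its own 500 bp. Since a rank depends on all other peaks of its library, a fall elsewhere can raise a region's score. A region was called when the adjusted p of limma was under 0.05, with the Benjamini-Hochberg correction over the regions tested. Changes are given with the standard error (SE) of the fit, which pools the spread over all 20 libraries at DIV18.

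The 4 libraries were alike in background. The lists held 198612 and 215071 intervals before and 187493 and 165089 after KCl, against 165089 to 266049 over all DIV18 libraries, and the background level read from the fold enrichment was 1.99 and 1.69 before and 1.78 and 1.94 after. Among equal lists of 75000 intervals, those over 3 kb numbered 677 and 584 before and 1043 and 945 after KCl. The median width in these lists went the other way, from 540 and 540 bp before to 522 and 475 bp after. The groups did not overlap in interval number or in wide intervals (exact permutation test, two-sided, p = 0.333 for each, the smallest possible with 2 against 2). Peak calls cannot check a guide-induced knockout. The part of the Smarcc2 gene under intervals was 9.91% and 11.5% before and 22.5% and 22.1% after KCl. Gene ends of all 10 pan-neuronal markers and of 14 of 15 excitatory neuron markers were held by all 4 libraries, against 9 of 10 astrocyte, 7 of 10 progenitor, 6 of 15 inhibitory neuron, 4 of 10 oligodendrocyte lineage, 1 of 10 vascular and 0 of 10 microglial markers. The summed interval scores of the neuronal markers were 40.7 and 38.2 before and 43.1 and 43.9 after KCl, those of the inhibitory markers 13.0 and 15.5 before and 19.5 and 23.9 after, those of the vascular markers 3.91 and 2.83 before and 5.85 and 5.02 after, and those of the microglial markers 0.30 and 0.47 before and 0.37 and 1.06 after. Excitatory markers had 48.6 and 47.7 before and 48.6 and 48.7 after, and astrocyte markers 23.2 and 25.5 before and 24.6 and 25.6 after. For oligodendrocyte lineage markers the sums were 11.5 and 11.5 before and 12.6 and 13.2 after, and for progenitor markers 22.5 and 22.0 before and 24.9 and 24.8 after. Sums of housekeeping genes, which mark no cell type, rose too, from 90.8 and 90.5 to 99.1 and 100. The part of such shifts in the results was not tested. In bulk libraries, a changed share of a cell type and changed accessibility within cells cannot be told apart.

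Depolarization changed the rank of many regions in neurons without Smarcc2. By interval, 5378 regions rose (3.94% of 136495) and 3672 fell (2.69%). By summit, 5309 rose (3.89%) and 6390 fell (4.68%). Both readings called 3125 regions higher and 2821 lower, and 9 in opposite directions. Rises were 59.4% of the calls by interval and 45.4% by summit. The majority of falls by summit did not hold without KCl library 1 (4689 rises and 3069 falls) or without KCl library 2 (3596 and 2498). Near gene ends, within 1 kb of either end of a protein-coding gene, rises were the more frequent call: of 22148 such regions, 4.57% rose and 2.34% fell by interval, and 5.97% rose and 3.84% fell by summit. Among 93502 distal regions, within 100 kb of a gene, 4.04% rose and 2.93% fell by interval, and 3.78% rose and 5.06% fell by summit. Within the gene ends, starts and 3′ ends differed in the main fit, a difference that was not tested. At 14330 starts, 861 regions rose and 348 fell by summit, and at 3209 3′ ends, 193 rose and 319 fell. By interval, 574 rose and 174 fell at starts, and 208 rose and 238 fell at 3′ ends. Rises remained the more frequent call at gene ends and at starts on leaving out any 1 library. By summit they also became so at distal regions and 3′ ends without KCl library 1 (3213 against 2319 and 201 against 166) or KCl library 2 (2485 against 1870 and 160 against 148). By interval, rises became the more frequent call at 3′ ends on leaving out any 1 of the 4 libraries. The counts were 114 against 96 without unstimulated library 1 and 119 against 113 without unstimulated library 2. Without KCl library 1 they were 141 against 116, and without KCl library 2 127 against 76. By presence alone among the top 75000 intervals, 6418 regions were held by both KCl libraries and neither unstimulated one (4.7%), and 5542 by both unstimulated libraries and neither KCl one (4.06%). These counts rested on every library: without either unstimulated or either KCl library, 2316 to 2838 regions rose and 987 to 1530 fell by interval, and 2771 to 4689 rose and 2498 to 4182 fell by summit. With the 4 libraries fitted on their own, 700 rose and 81 fell by interval and 0 changed by summit at an adjusted p under 0.05.

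To follow the early response gene by gene, 35 activity genes were described, whatever their change, by the gene-end region with the highest mean interval score over the DIV18 libraries. Such a region was found for 34 of them, and for Inhba there was none. Since KCl libraries enter that mean, the choice was repeated on the 10 unstimulated libraries alone: it gave the same region for 33 genes and another for Bdnf, with 21 rises by interval (median change 1.48) and 17 by summit (1.17). By interval, 22 of the 34 rose and 0 fell (4.57% and 2.34% of all gene-end regions), with a median change of 1.56 against 0.13 for all gene ends. By summit, 18 rose and 0 fell (5.97% and 3.84% of all gene-end regions), with a median of 1.20 against 0.06. Both readings called 17. Both KCl scores lay above both unstimulated scores in 31 of the 34 by interval (25% of all regions) and in 27 by summit (18%). Leaving out 1 library gave 14 to 17 rises by interval, 14 of them without unstimulated library 1 or KCl library 2, and 14 to 16 by summit, and the 4 libraries on their own gave 7 and 0.

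**Figure D1:**
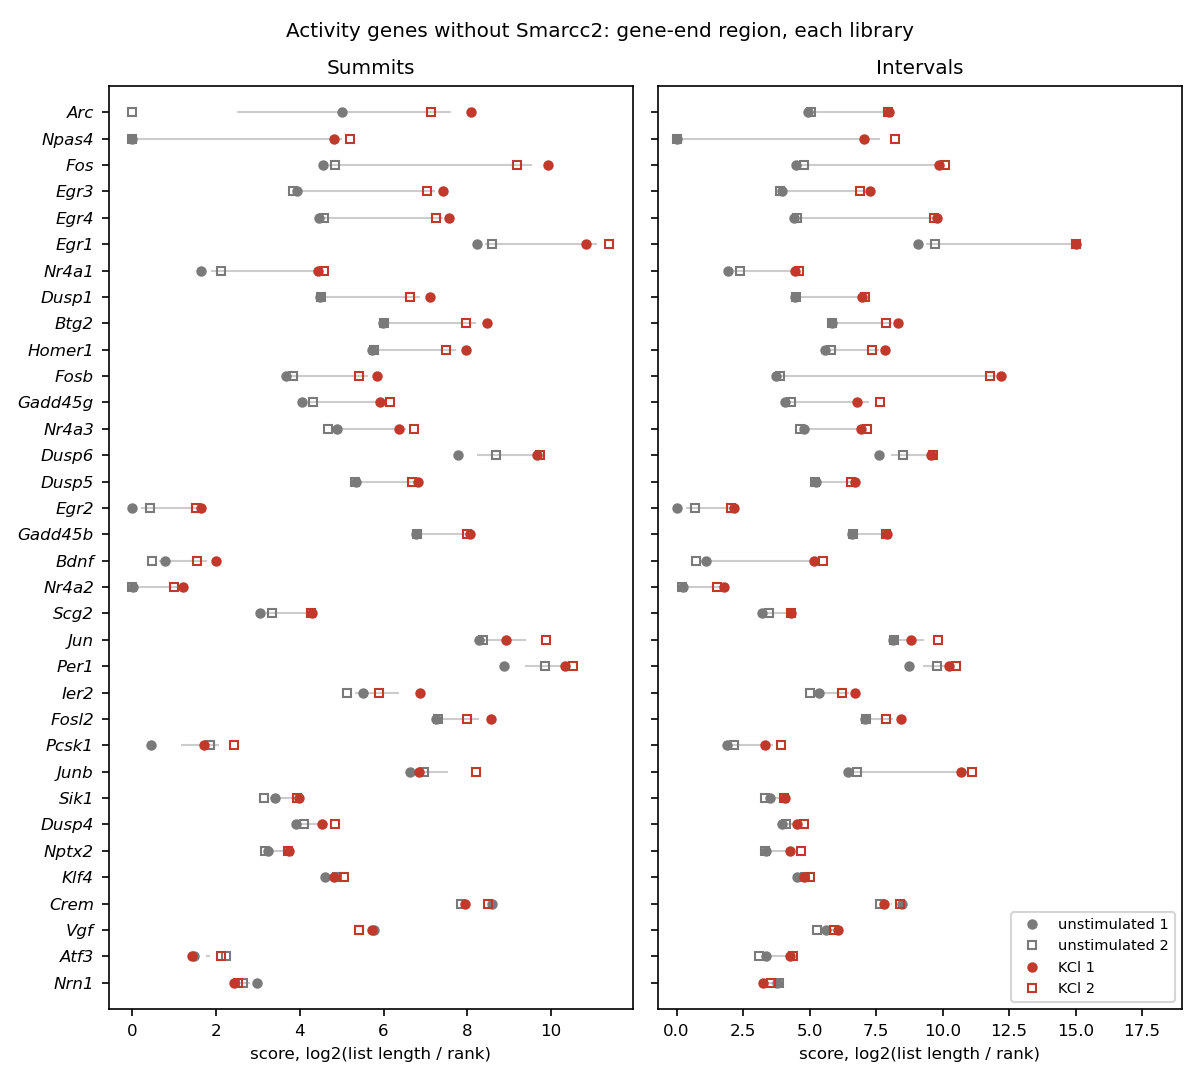
Scores of the gene-end region of 34 activity genes in the 4 libraries without Smarcc2, by summit (left) and by interval (right). Each point is 1 library, gray unstimulated and red KCl with circles for library 1 and squares for library 2, the gray line joins the group means, and the x axis is log2 of the list length over the rank; KCl points lie to the right of both unstimulated points in 27 genes by summit and 31 by interval.

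The AP-1 genes gave some of the largest changes. Fos encodes a leucine zipper protein that pairs with Jun proteins to form AP-1. The region over the Fos start (chr12:85473699-85474198, in the gene, 58 bp from its start) scored 4.54 and 4.85 in the unstimulated and 9.93 and 9.18 in the KCl libraries by summit. The groups were far apart, with a change of 4.86 ± 0.35 (SE, n = 2 each, adjusted p = 1.14e-05), and by interval the change was 5.34 ± 0.29 (adjusted p = 6.72e-08). Fosb, its close relative, moved less at its promoter: the summit scores were 3.68 and 3.85 before and 5.84 and 5.41 after KCl (1.86 ± 0.34, adjusted p = 0.00693). By interval the same Fosb window went from 3.74 and 3.90 to 12.2 and 11.8, and in both KCl libraries the interval over this window ran on past the 3′ end of the gene. Junb showed the same contrast between readings. The region 234 bp past its 3′ end scored 6.46 and 6.80 before and 10.7 and 11.1 after KCl by interval (4.28 ± 0.49, adjusted p = 0.000238), but 6.63 and 6.98 before and 6.85 and 8.22 after by summit, where the groups overlapped (0.73 ± 0.51, adjusted p = 0.439). At the Junb promoter itself, the summit scores were 5.87 and 6.03 before and 8.11 and 9.09 after (2.65 ± 0.37, adjusted p = 0.00138). The start of Jun, already at 8.29 and 8.37, reached 8.93 and 9.88 (1.07 ± 0.40, adjusted p = 0.127), and Fosl2 went from 7.26 and 7.30 to 8.57 and 7.98 (1.00 ± 0.37, adjusted p = 0.128); neither was called.

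All 4 Egr genes, which encode zinc finger factors, rose by summit. Egr1 ranked near the top of the list before the stimulus: its start region scored 8.24 and 8.59 unstimulated and 10.8 and 11.4 after KCl (2.69 ± 0.31, adjusted p = 0.000387). Egr3 rose from 3.92 and 3.84 to 7.41 and 7.04 (3.34 ± 0.43, adjusted p = 0.000838), and Egr4 at the promoter printed earlier from 4.47 and 4.57 to 7.57 and 7.25 (2.89 ± 0.34, adjusted p = 0.000463). In Egr1, Egr3 and Egr4 the lower KCl score exceeded the higher unstimulated score by more than 2. At the gene end described, Egr2 had the smallest change of the 4, with 0.00 and 0.41 before and 1.63 and 1.52 after (1.37 ± 0.22, adjusted p = 0.00307). By interval this Egr2 change was not called (1.77 ± 1.08, adjusted p = 0.379). The region over other annotated Egr2 starts, 3355 bp from the outer one, rose in both readings, from 4.06 and 4.26 to 5.94 and 6.53 by summit (2.08 ± 0.31, adjusted p = 0.00229) and by 1.82 ± 0.27 by interval (adjusted p = 0.00176); it was picked as the distal Egr2 region with the largest change.

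Npas4, a neuronal bHLH-PAS factor that depolarization induces, had no summit in the trimmed unstimulated lists at the region 790 bp from its 3′ end. There the scores were 0.00 and 0.00 before and 4.83 and 5.20 after KCl (5.01 ± 0.31, adjusted p = 3.67e-06). Its promoter (chr19:4989733-4990232) scored 2.92 and 3.25 before and 5.98 and 5.42 after (2.61 ± 0.34, adjusted p = 0.00100). Of the Nr4a genes, which encode orphan nuclear receptors, Nr4a1 rose from 1.63 and 2.11 to 4.45 and 4.59 at its first start (2.65 ± 0.35, adjusted p = 0.000992) and from 3.15 and 3.82 to 7.56 and 8.48 at the printed promoter (4.54 ± 0.42, adjusted p = 8.57e-05). Nr4a3 rose from 4.88 and 4.68 to 6.37 and 6.72 (1.76 ± 0.30, adjusted p = 0.00485). For Nr4a2 the scores were low, 0.02 and 0.00 before and 1.21 and 0.99 after (1.09 ± 0.28, adjusted p = 0.0317), and this call was lost on leaving out any 1 of the 4 libraries, with changes of 0.98 to 1.20.

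The remaining transcription factors split by reading. Ier2 and Atf3 rose by interval only (1.27 ± 0.33, adjusted p = 0.0378, and 1.10 ± 0.25, adjusted p = 0.0194), and both calls were lost on leaving out any 1 library. By summit the Ier2 region had 5.50 and 5.14 before and 6.87 and 5.89 after (adjusted p = 0.121), and that of Atf3 1.48 and 2.23 before and 1.42 and 2.11 after (−0.09 ± 0.36, adjusted p = 0.994). The promoter of Atf3, a second region in the gene, did rise by summit, from 3.13 and 2.89 to 4.23 and 4.33 (1.27 ± 0.29, adjusted p = 0.0196). Per1, Crem and Klf4 were not called at the gene ends described. Per1, a clock gene, scored 8.87 and 9.86 before and 10.3 and 10.5 after (1.06 ± 0.56, adjusted p = 0.292), but at an internal promoter (region from 69099718) it rose by summit from 5.68 and 5.66 to 8.05 and 9.05 (2.88 ± 0.30, adjusted p = 0.000193). This internal region was not called by interval (1.11 ± 0.99, adjusted p = 0.581). Crem, a CREB family gene, scored 8.60 and 7.85 before and 7.95 and 8.50 after (0.00 ± 0.28, adjusted p = 1), with the groups overlapping. Klf4 scored 4.60 and 4.88 before and 4.82 and 5.06 after (0.19 ± 0.21, adjusted p = 0.668). Of the 69 gene-end regions at the 28 listed early transcription factors, 38 were higher and 0 lower by interval, and 32 higher and 0 lower by summit (4.57% and 2.34% of all gene-end regions by interval, 5.97% and 3.84% by summit). Leaving out 1 library gave 27 to 30 and 26 to 30 rises.

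Genes that act on signaling and synapses moved in the same direction where they were called. Arc, which encodes a regulator of AMPA receptors at synapses, scored 4.96 and 5.05 before and 8.00 and 7.96 after KCl by interval (2.98 ± 0.41, adjusted p = 0.00115). By summit its unstimulated libraries disagreed, 5.00 against 0.00, with 8.09 and 7.14 after KCl (5.11 ± 1.09, adjusted p = 0.0147, not called without KCl library 1), and without unstimulated library 2 the change was 2.61. Dusp1, a phosphatase that switches off MAP kinases, rose at its start from 4.49 and 4.51 to 7.11 and 6.63 (2.37 ± 0.22, adjusted p = 9.87e-05). Dusp5 rose from 5.35 and 5.32 to 6.83 and 6.69 (1.43 ± 0.19, adjusted p = 0.000943). In both genes the libraries of a group lay within 0.5 of each other. Dusp6 and Dusp4 were not called: Dusp6 scored 7.77 and 8.68 before and 9.66 and 9.73 after (1.47 ± 0.63, adjusted p = 0.186), and Dusp4 3.91 and 4.10 before and 4.54 and 4.83 after (0.68 ± 0.29, adjusted p = 0.178). Btg2, an antiproliferative gene, rose from 5.98 and 6.00 to 8.46 and 7.97 (2.22 ± 0.27, adjusted p = 0.00059). Homer1, which encodes a scaffold of the postsynaptic density, rose at its start from 5.74 and 5.77 to 7.97 and 7.49 (1.98 ± 0.37, adjusted p = 0.00752; not called without KCl library 1). Gadd45g rose from 4.05 and 4.32 to 5.92 and 6.16 (1.85 ± 0.29, adjusted p = 0.00286), whereas its relative Gadd45b, a stress-response gene, went from 6.76 and 6.81 to 8.06 and 8.00 without a call (1.25 ± 0.42, adjusted p = 0.0936). Sik1, a kinase that restrains CREB coactivators, went from 3.42 and 3.15 to 3.99 and 3.94 at its start (0.69 ± 0.23, adjusted p = 0.0944). Of the 71 gene-end regions at 28 effector and feedback genes, 30 were higher and 0 lower by interval, and 34 higher and 0 lower by summit (4.57% and 2.34% of all gene-end regions by interval, 5.97% and 3.84% by summit). Leaving out 1 library gave 22 to 25 and 26 to 28 rises.

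Secreted and late activity genes were called at a smaller part of their gene ends, a difference between lists that was not tested. Of the 55 gene-end regions on that list of 28 genes, 15 were higher and 0 lower by interval, and 13 higher and 1 lower by summit (4.57% and 2.34% of all gene-end regions by interval, 5.97% and 3.84% by summit). These counts were the least stable of the activity lists: 3 to 8 rises by interval on leaving out 1 library, 3 of them without KCl library 2, and 6 to 12 by summit, with 6 without KCl library 2 and 7 without unstimulated library 2. Scg2, which encodes the granin secretogranin II, rose at its start from 3.05 and 3.33 to 4.28 and 4.27 (1.08 ± 0.17, adjusted p = 0.00264). Bdnf, a neurotrophin, scored 0.79 and 0.46 before and 2.01 and 1.54 after at the region 665 bp inside its first start (1.15 ± 0.31, adjusted p = 0.0408), a call lost on leaving out any 1 library. At 1 internal Bdnf promoter (region from 109722722) the trimmed lists held no summit before, and the KCl scores were 0.86 and 0.87 (adjusted p = 0.00117). Pcsk1, a convertase that cuts prohormones, scored 0.44 and 1.87 before and 1.71 and 2.43 after at the gene end described, where the groups overlapped by summit (0.92 ± 0.47, adjusted p = 0.271). By interval that region was called (1.57 ± 0.33, adjusted p = 0.0129), but not without unstimulated library 1 or KCl library 2. The neighboring region over its promoter rose by 1.82 ± 0.33 by summit (adjusted p = 0.00665). At the neuropeptide gene Vgf, the scores of 5.76 and 5.40 before and 5.72 and 5.42 after overlapped (−0.01 ± 0.35, adjusted p = 1). Nptx2, a secreted pentraxin, had 3.24 and 3.16 before and 3.75 and 3.71 after by summit (0.53 ± 0.18, adjusted p = 0.0936). By interval this Nptx2 region was called, though not without KCl library 2, with changes of 0.91 to 1.35 on leaving out 1 library. The distal Nptx2 region picked for its change (from 144548133) rose in both readings. On leaving out 1 library its change was 1.22 to 1.66 by interval and 1.47 to 1.98 by summit. Nrn1, a surface protein of growing neurites, had 2.98 and 2.65 before and 2.43 and 2.52 after (−0.35 ± 0.33, adjusted p = 0.608), with both KCl scores under both unstimulated ones. Inhba, an activin subunit, had a distal region 5984 bp from its start that went from 0.95 and 0.94 to 0.00 and 0.00 (−0.94 ± 0.24, adjusted p = 0.0342, not called without any 1 of the 4 libraries). It was picked as the distal Inhba region with the largest change called in both readings. A region over an Inhba promoter (chr13:16011629-16012128) was not called by summit, with 2.55 and 2.16 before and 3.23 and 2.49 after (0.50 ± 0.28, adjusted p = 0.308). By interval that promoter region was not called either (0.12 ± 0.23, adjusted p = 0.857).

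Distal regions of the early genes rose as well. Of 339 distal regions nearest to an early transcription factor gene, 139 rose and 1 fell by interval and 134 rose and 3 fell by summit (4.04% and 2.93% of all distal regions by interval, 3.78% and 5.06% by summit). For the effector and feedback genes, 97 of 360 rose and 4 fell by interval and 85 rose and 6 fell by summit, and for the late genes 16 of 259 rose and 6 fell by interval and 19 rose and 5 fell by summit. Such rises were not particular to activity genes. Of 121 distal regions of the housekeeping list, 33 rose and 7 fell by interval, and 34 rose and 6 fell by summit. Without unstimulated library 2, 89 distal regions of the early transcription factors rose by summit, and without either unstimulated library 55 of the effector genes. For the late genes, leaving out 1 library gave 5 to 13 rises by interval and 7 to 13 by summit, fewest without unstimulated library 1. Several of the largest rises lay past 3′ ends. The region 1591 bp from the 3′ end of Fos went from 0.35 and 0.29 to 5.89 and 5.57 by summit, and the region 1053 bp from that of Nr4a1 from 0.00 and 0.00 to 7.29 and 6.96. Near Arc, a region 1128 bp from the gene went from 2.45 and 2.01 to 7.29 and 7.00 (4.91 ± 0.33), and near Egr3 a region 3400 bp away from 0.00 and 0.00 to 4.67 and 5.60. Inside Homer1, at the promoter printed earlier (chr13:93307744-93308243), the trimmed lists held no summit before KCl and the scores were 2.77 and 3.45 after it (3.11 ± 0.27). Crem, without a change at its gene end, rose at a region 15439 bp inside the gene, from 0.73 and 1.00 to 3.03 and 3.00 (2.15 ± 0.18). Each of these 6 was picked as the distal region of its gene with the largest change called in both readings, so the gap between the groups follows from the choice and is a description. By presence among the top 75000 intervals, 123 of the 408 gene-end and distal regions of the early transcription factors were gained and 2 lost, and 89 of the 431 of the effector genes were gained and 4 lost (4.7% and 4.06% of all regions). Of 152 such regions of the housekeeping list, 26 were gained and 1 lost. Differences between lists were not tested.

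Single regions understate how far accessibility spread along these genes. Around Fos, the widest interval measured 3896 and 2463 bp in the unstimulated libraries and 9061 and 8983 bp after KCl. It then ran from positions −2353 and −2490 relative to the start to 6707 and 6492, beyond the 3385 bp of the gene. At Fosb the widest interval grew from 1588 and 1571 bp to 12317 and 11361 bp, and at Npas4 from 1458 and 1632 bp to 12011 and 11882 bp. Nr4a1 went from 1572 and 1666 bp to 13138 and 12712 bp. At Dusp5 the widths were 2140 and 2282 bp before and 11791 and 11909 bp after, and at the late gene Scg2 1034 and 898 bp before and 3891 and 4063 bp after. In all 6 genes the narrower KCl interval was over 2 times as wide as the broader unstimulated one. At Nr4a1 and Scg2, however, the widest intervals before and after KCl lay at different places. That of Nr4a1 began at 29287 and 29178 before, past the 20894 bp gene, and at 11285 and 11205 after. At Scg2 it began at −681 and −523 before, and at 5852 and 5682 after, past the 5661 bp gene. Their widths thus do not show 1 interval growing.

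**Figure D2:**
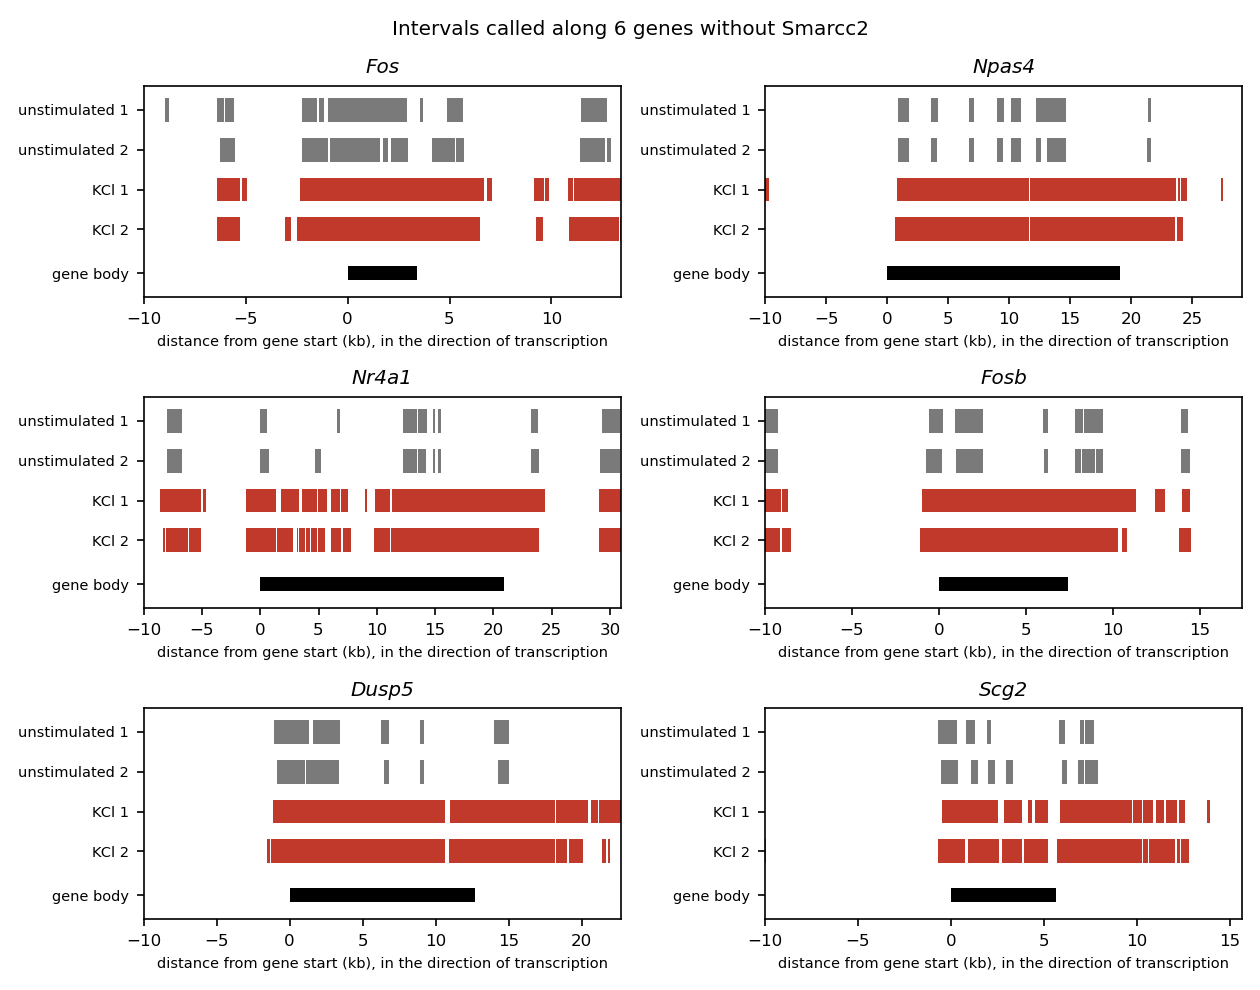
Intervals called in the 4 libraries without Smarcc2 along Fos, Npas4, Nr4a1, Fosb, Dusp5 and Scg2, drawn to scale from 10 kb before the gene start to 10 kb past its end in the direction of transcription, with the gene body in black. Separate gray intervals of the unstimulated libraries give way to long red intervals in both KCl libraries, up to 13138 bp at Nr4a1, and red intervals also cover sequence past the end of each gene.

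To count this for all genes, the percent of each gene body under intervals (its cover) was taken from lists of 133009 intervals, a measure added after the data had been seen. Cover rose in 593 of 15929 gene bodies (3.72%) and fell in 380 (2.39%) in the same kind of limma fit. Of the 35 activity genes 21 rose and 0 fell, with a median change of 22.7 percentage points against 0.00 for all genes. Sik1 went from 11.0% and 8.78% to 92.6% and 90.6% (81.7 ± 12.5 points, adjusted p = 0.0018), although its start had no call. Npas4 went from 29.8% and 26.9% to 95.6% and 96.3%, Nr4a1 from 15.6% and 17.6% to 83.4% and 83.3%, and Dusp5 from 32.2% and 31.8% to 97.2% and 98.1%. Fosb and Egr3 were fully covered after KCl, from 28.0% and 27.2% and from 44.6% and 44.1%. None of these 6 genes had overlapping groups. The calls at Jun, Egr4, Crem, Dusp4, Bdnf, Scg2, Nptx2 and Nrn1 were lost on leaving out 1 or more of the libraries in turn, and over all bodies this gave 333 to 456 rises and 132 to 230 falls. Short genes could rise little: 7 of the 35 bodies were at least 90% covered in the unstimulated mean, Junb and Gadd45g at 100%, and 18 after KCl. At the other end, cover of Vgf was 88.9% and 85.7% before and 84.4% and 85.3% after (adjusted p = 0.91), and that of Inhba 17.1% and 15.7% before and 17.3% and 15.1% after (adjusted p = 0.99).

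The 5 kb past the 3′ end of activity genes opened as well. Over all 7972 such windows with known strand, 333 rose (4.18%) and 603 fell (7.56%), so falls were the more frequent call (227 to 290 rises and 296 to 502 falls on leaving out 1 library, with the fewest falls without KCl library 2). This order turned once interval number entered the fit (301 rises and 256 falls) and with lists of 30000 intervals (129 and 110). Of the 24 windows of activity genes, 17 rose and 0 fell, with a median of 29.9 points against −0.70 for all. Nr4a2 went from 10.1% and 3.00% to 96.2% and 100% (91.6 ± 6.98 points, adjusted p = 4.2e-06), Npas4 from 5.28% and 5.84% to 95.4% and 95.6% (89.9 ± 3.07 points, adjusted p = 1.3e-09), and Dusp1 from 56.2% and 57.4% to 100% and 100%. At Scg2 this window rose from 20.5% and 26.0% to 94.9% and 97.6%. Nr4a3 had 4.36% and 4.86% before and 5.44% and 4.18% after (adjusted p = 1), while its 41370 bp body rose from 15.4% and 12.7% to 80.9% and 72.8%. The 5 kb before the start changed in fewer genes: 266 of 11305 rose (2.35%) and 126 fell (1.11%). Leaving out 1 library gave 125 to 262 rises, the fewest without unstimulated library 2, and 62 to 97 falls, the fewest without KCl library 2. Of 22 activity genes 6 rose and 0 fell, with a median of 7.79 points. The calls at Fosl2, Nr4a3, Atf3 and Btg2 were lost on leaving out 1 or more of the libraries in turn. Nr4a1 was among the 6, with 0.42% and 0.66% before and 29.9% and 24.0% after. Windows of neighboring genes can overlap, and cover is only as deep as the list is long.

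The 10 largest rises of the genome, by summit change among regions called in both readings with no overlap between the groups, all lay at or beside early-response transcription factor genes. Fosb led, with 0.20 and 0.08 before and 10.9 and 11.6 after KCl at the region 475 bp past its 3′ end (chr7:19301972-19302471, 11.1 ± 0.54, adjusted p = 5.61e-07). A region next to it, 1006 bp from the 3′ end, went from 0.38 and 0.72 to 12.1 and 10.7, among the highest ranks of both KCl lists. A region 593 bp from an end of Egr1 went from 3.22 and 3.55 to 13.3 and 13.1 (9.81 ± 0.38, adjusted p = 1.42e-07). At Fos, the region 126 bp past the 3′ end (chr12:85477151-85477650) went from 0.00 and 0.00 to 9.30 and 10.1 (9.71 ± 0.69, adjusted p = 1.08e-05). Of the 10, those with a nearest 3′ end in the annotation lay at Fosb, Fos, Npas4, Nr4a1 and Prdx2. The last is the gene beside Junb, and its region (chr8:84974995-84975494) went from 1.78 and 1.98 to 10.8 and 11.1. These regions were picked for their size, so their values are a description.

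The largest falls were smaller and mostly distal. The lowest change, −3.20 ± 0.48 (adjusted p = 0.00224), lay 57365 bp from Kif13b, a kinesin gene (chr14:64594878-64595377), where the scores of 5.69 and 5.40 dropped to 1.83 and 2.85. Falls inside genes were found in St8sia5, a sialyltransferase gene (4.19 and 4.13 to 1.38 and 1.36), Pcbp3, an RNA-binding protein gene (3.21 and 2.51 to 0.00 and 0.20), Myrip, which encodes a linker of organelles to myosin (3.25 and 3.78 to 0.96 and 0.70), and Dner, which encodes a Notch ligand of neurons (4.11 and 3.92 to 1.52 and 1.36). Icam5 encodes telencephalin, an adhesion molecule of cortical dendrites. A region inside it went from 3.21 and 2.98 to 0.76 and 0.00, and cover of its body fell from 96.2% and 87.5% to 45.7% and 45.1% (−46.5 ± 4.09 points, adjusted p = 2.7e-05). The only gene end among the 10 was the printed Klhdc2 promoter (chr12:69296367-69296866), which scored 6.97 and 7.09 before and 4.45 and 4.52 after (−2.55 ± 0.16, adjusted p = 4.28e-06). Klhdc2 encodes a substrate receptor of a ubiquitin ligase. The largest falls in cover included 2 genes. Clic3, a chloride channel family gene, went from 97.4% and 100% to 3.51% and 19.8% (−87.0 ± 14.5 points, adjusted p = 0.0033), and Cbx6, a Polycomb gene, from 85.3% and 95.3% to 28.3% and 31.6% (−60.4 ± 5.01 points, adjusted p = 1.7e-05).

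Lists not chosen for activity differed among themselves at gene ends, and no difference between lists was tested. Of 52 gene-end regions at synapse and excitability genes, 1 rose and 2 fell by interval and 1 rose and 1 fell by summit. Of 49 at BAF and PBAF subunit genes, 0 rose and 2 fell by interval and 2 rose and 2 fell by summit. Housekeeping genes, taken as a control, rose more often than the background of 4.57%: 8 of 31 gene-end regions rose and 1 fell by interval, 7 rose and 1 fell by summit, and 33 of 121 distal regions rose and 7 fell by interval. Leaving out 1 library gave 3 to 5, 4 to 5 and 17 to 24 rises for these, fewest without KCl library 2, unstimulated library 1 and unstimulated library 2, and 21 distal rises without KCl library 2. Of 38 gene-end regions at chaperone genes, a list added after values were seen, 10 rose by interval and 14 by summit, with 0 falls (4 to 6 and 7 to 11 rises on leaving out 1 library). Pan-neuronal markers rose at 4 of 21 gene-end regions by interval and 3 by summit (2 to 3 and 1 to 3), and vascular markers at 2 of 4 in each reading (1, and 0 to 1). By interval, 1 of 37 excitatory, 1 of 21 inhibitory and 2 of 17 astrocyte marker regions rose. Rises were 1 of 13 for oligodendrocyte lineage, 1 of 23 for progenitor and 0 of 2 for microglial markers. Falls by interval were 2 at excitatory and 1 at progenitor markers. Of 54 distal regions of vascular markers, 2 rose and 3 fell by interval. Over all gene-end regions, 4.57% rose by interval and 5.97% by summit, and over all distal regions 4.04% and 3.78%.

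Non-targeting neurons and the wild-type add-back gave the same comparison with Smarcc2 present. Of the 34 activity gene regions, 24 rose by summit in non-targeting neurons (5.28% of all regions) and 18 in the wild-type add-back (3.54%), against 18 without Smarcc2 (3.89%). Over all regions, 8.05% rose by interval in non-targeting neurons and 4.15% in the add-back, against 3.94%. The median summit change of the 34 regions was 1.20 without Smarcc2, 1.56 in non-targeting neurons and 1.45 in the add-back. Fos rose by 4.94 ± 0.35 and 5.45 ± 0.35 in these 2 genotypes, Npas4 by 5.34 ± 0.31 and 4.81 ± 0.31, and Egr4 by 3.34 ± 0.34 and 3.29 ± 0.34. By summit, the knockout's change was the smaller at 27 of 34 regions against non-targeting neurons and at 25 against the add-back. Median differences by summit were −0.31 and −0.18 at these regions, against 0.00 and 0.00 over all regions. By interval they were −0.51 and −0.38, against −0.12 and −0.03 over all regions. No single difference passed the test of the difference itself: 0 of 34 were called in either comparison and either reading by limma, and 3 in each had an unadjusted p under 0.05. For Scg2 the difference was −0.91 ± 0.24 against the add-back (adjusted p = 0.236), the smallest adjusted p of the 34 by summit, and −0.65 ± 0.24 against non-targeting neurons (adjusted p = 0.447). For Fos it was −0.07 ± 0.49 (adjusted p = 1) and −0.59 ± 0.49 (adjusted p = 0.885), so a difference of this size could not be told from 0. Gene bodies gave 21 rises among 35 without Smarcc2, 29 in non-targeting neurons (8.73% of all bodies rose and 1.12% fell there) and 19 in the add-back (2.32% rose), and again 0 of 35 differences were called; 4 and 1 had an unadjusted p under 0.05. Fitted on only the 8 libraries of both genotypes, 1 body was called against non-targeting neurons, that of Atf3 (−56.7 points, adjusted p = 0.00836, against 0.528 with all 20). For cover, the knockout's change was the smaller at 27 of 35 bodies and 19 of 24 windows past the 3′ end against non-targeting neurons. The median differences were −4.11 points for these bodies and −3.30 for these windows. Over all bodies and all such windows they were already below 0, at −0.64 and −1.80 points. Against the add-back the knockout's change was smaller at 16 and larger at 17 bodies, and smaller at 9 and larger at 15 windows, with a median difference of 1.58 points for the windows. The background level was 1.51 and 2.23 in unstimulated and 3.68 and 2.85 in KCl libraries of non-targeting neurons, higher after KCl than in any library without Smarcc2, and its part in the order of these counts was not tested.

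**Figure D3:**
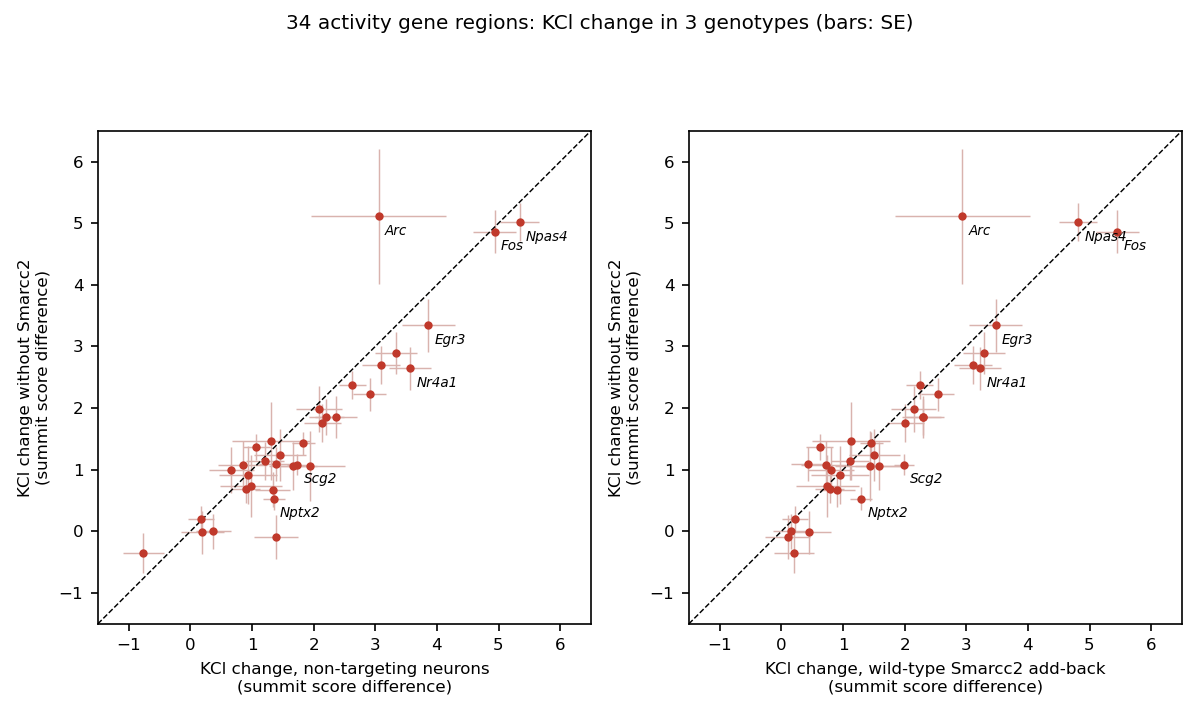
KCl change in summit score of 34 activity gene regions without Smarcc2 (y axis) against non-targeting neurons (left) and the wild-type add-back (right), with SE bars from the fit and the line of equal change dashed. Points lie under the line at 27 of 34 regions on the left and 25 on the right.

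Over all regions, few responses were called as different between genotypes. With 2 libraries per group, a response that was not called is not shown to be equal. Against non-targeting neurons, the response without Smarcc2 was higher at 43 regions and lower at 148 by interval (0.0315% and 0.108%), and higher at 419 and lower at 178 by summit (0.307% and 0.13%), with 10 and 8 called in both readings. Against the add-back it was higher at 49 and lower at 28 by interval (0.0359% and 0.0205%), and higher at 321 and lower at 155 by summit (0.235% and 0.114%), with 6 and 1 in both. The interval counts moved to 60 to 117 and 181 to 194 against non-targeting neurons, and to 81 to 154 and 58 to 85 against the add-back, on leaving out 1 library, with the most higher responses without KCl library 2 and the most lower ones without unstimulated library 2. They were larger in several other settings, given in the closing sections. In limma, 9006 differences from non-targeting neurons by interval and 11007 by summit had an unadjusted p under 0.05. From the add-back these were 7689 and 9815. Most of the regions named here were low in every library. At the region nearest to Rpl14, 177176 bp from the gene (chr9:120751580-120752079), the trimmed knockout lists had no summit before or after KCl. The unstimulated non-targeting libraries scored 1.21 and 1.33 there, and the trimmed non-targeting KCl lists had no summit. At an end of Tmem134 (chr19:4131738-4132237) the knockout went from 1.58 and 1.75 to 0.00 and 0.00, non-targeting neurons from 0.19 and 0.00 to 0.00 and 0.00, and the add-back from 0.89 and 0.63 to 0.00 and 0.00.

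Cdk11b, which encodes a cyclin-dependent kinase of transcription and splicing, stood out. Cover of its 25095 bp body (chr4:155624841-155649935) was 2.09% and 3.07% before and 66.1% and 63.1% after KCl without Smarcc2 (62.0 ± 2.44 points, adjusted p = 2.6e-08). In the other genotypes, unstimulated libraries had 1.41% to 3.37%, and KCl libraries 15.9% and 5.26% (non-targeting), 14.0% and 10.6% (wild-type add-back), 5.21% and 4.32% (S586A) and 5.20% and 3.86% (S586E). Both KCl libraries without Smarcc2 thus lay far above every other library. The response exceeded that of non-targeting neurons by 54.6 points (adjusted p = 9.7e-06) and that of the add-back by 51.4 points (adjusted p = 1.9e-05), and by 53.1 to 56.1 and 49.9 to 52.9 points on leaving out 1 knockout library. With all deposited intervals the differences were 42.6 points (adjusted p = 0.0394) and 40.1 points (adjusted p = 0.0585), so the second call was lost, although the knockout KCl libraries (74.1% and 68.1%) still lay above all others (at most 37.7%). With lists of 30000 the differences were 4.91 and 4.89 points, neither called. By summit, 3 regions inside the gene had scores of 0.00 before KCl and 0.71 to 1.15 after it, low in the list. The gene on 1 side, Slc35e2, had body cover of 7.06% and 6.70% before KCl and a change of −0.31 points (adjusted p = 0.8). On the other side, Mmp23 had 71.0% and 74.4% before and 100% and 98.7% after, and Mib2 15.3% and 18.3% before and 35.2% and 31.2% after, with differences from non-targeting neurons of −4.35 and 6.09 points, neither called (adjusted p = 0.96 and 0.73). Of the 15929 gene bodies, 13 responded more and 15 less than in non-targeting neurons (0.0816% and 0.0942%), and 16 more and 3 less than in the add-back (0.1% and 0.0188%); 9 differed from both. Leaving out 1 knockout library gave 8 to 28 and 5 to 27, and 8 to 36 and 2 to 7; the most higher responses came without KCl library 2 and the fewest lower ones too. With all deposited intervals, 4 bodies responded more and 0 less than in non-targeting neurons and 0 differed from the add-back, so none differed from both.

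Among these 9, Rab6a, a Golgi GTPase gene, and Etf1, which encodes the translation release factor eRF1, followed Cdk11b in direction. Rab6a cover was 5.48% and 6.10% before and 32.7% and 29.7% after KCl without Smarcc2, against KCl values of 9.80% to 14.7% in the other 8 KCl libraries. Etf1 cover was 3.86% and 4.05% before and 37.3% and 32.3% after, against 4.81% to 18.7% in the others; its difference from non-targeting neurons was not called without unstimulated library 1 (adjusted p = 0.0704). With all deposited intervals the Rab6a differences were 16.5 and 16.9 points and those of Etf1 3.28 and 19.5, none of them called (adjusted p = 0.377, 0.439, 0.956 and 0.633). With lists of 30000 all 4 were below 0 and not called. Smim22, a short gene of 1022 bp, ran the other way. Its cover was 65.2% and 93.4% in the unstimulated and 0% and 0% in the KCl libraries without Smarcc2, and 0% in each of the other 16 DIV18 libraries, all in lists of equal length. The response difference was −79.3 points against both genotypes (adjusted p = 0.00086 and 0.0012). With all deposited intervals it was −47.9 and −11.9 points, neither called (adjusted p = 0.918 and 1), and 7 of the 8 unstimulated libraries of the other genotypes then had cover of 3.72% to 86.2%. In lists of 75000 none of the 20 libraries covered the gene. Genes differing from both were singled out after their values were seen.

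**Figure D4:**
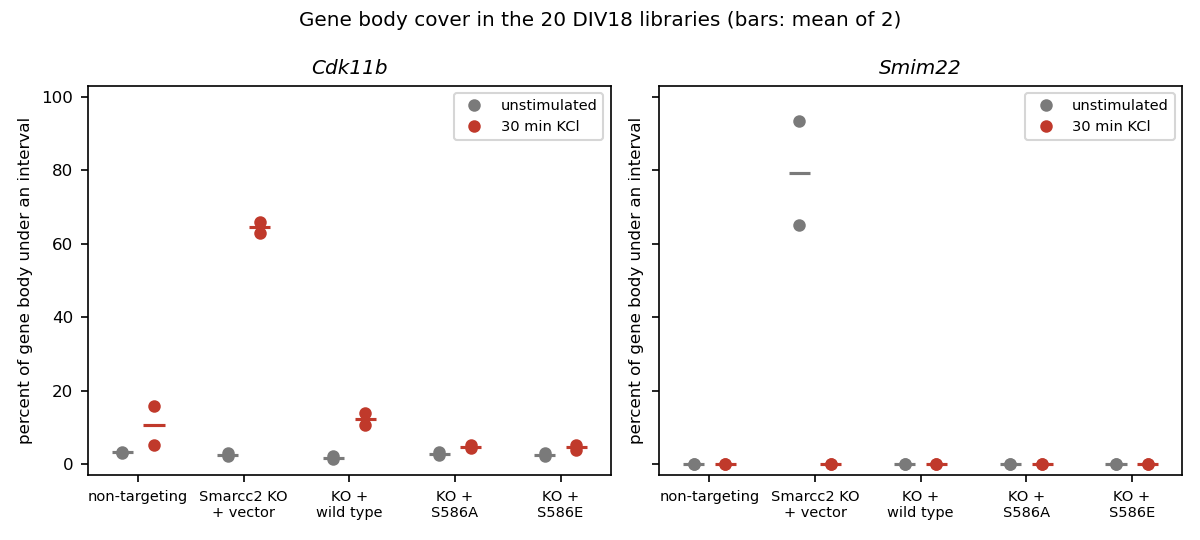
Percent of the Cdk11b (left) and Smim22 (right) gene body under intervals in the 20 DIV18 libraries, by genotype; points are libraries, gray unstimulated and red KCl, and short lines are means of 2. KCl libraries without Smarcc2 reach 66.1% and 63.1% at Cdk11b against at most 15.9% elsewhere, and in these lists of equal length Smim22 is covered in the 2 unstimulated libraries without Smarcc2 alone.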

How the data were processed

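ATAC-seq peak lists of 20 DIV18 libraries were used for the fits and those of all 44 for the regions. The submitters' processing notes name mm10, MACS2, Bowtie2, Picard, bedtools, Trim Galore, SAMtools and FastQC; versions are not given in the sources used here. The deposited lists hold, per summit, a fold enrichment (a ratio to 1 background level per library), and the −log10 p and −log10 q of the authors' peak caller. Each library has its own deposited list, with no pooled list used. Depth was otherwise unknown: no read counts were used, and the background level was taken from the steps of the fold enrichment (all values whole multiples within 0.02 of a step).

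Autosomal lists were ranked by −log10 p and trimmed to equal length. Regions were 500 bp windows at the best summit of each interval among the top 75000 of any of the 44 libraries, taken in order of rank, tested where at least 2 of 20 libraries held them by 1 bp or more. Scores and cover were fitted with limma 3.58.1 in R 4.3.3 (1 mean per group, trend, Benjamini-Hochberg, called at adjusted p under 0.05) and the fit was tested on simulated data. Genotype differences are interaction contrasts. Cover used 19281 genes of at least 1 kb; strand was known for 15285. Genes and promoters came from RefSeq on GRCm38.p6, in which 25 of the 35 activity genes had a promoter and Egr1, Egr3, Ier2, Crem, Arc, Dusp4, Sik1, Vgf, Nptx2 and Nrn1 had none.

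Regions were named by rule: each activity gene's gene-end region with the highest mean score, its distal region with the largest change called in both readings, the 10 largest rises and 10 largest falls, and the 5 largest interactions each way. Other regions, cover and chaperone genes were added after seeing values. The 35 genes and the lists were chosen with earlier results of these data known, so they give no independent support. Whether replicate numbers pair the libraries is not known, and the main fits used no pairing. Deviations of equal numbers correlated by 0.05 (intervals), 0.10 (summits) and 0.10 (cover), but over 1 pair of groups, which cannot settle it. Alternatives were the list length, overlap, ranking column, libraries fitted, covariate, filters, threshold, block and leaving out libraries. Sex chromosomes were not used. Some results that these rules select are not reported here.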

Additional observations from a re-analysis of the deposited data

Results flagged for a closer look

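The following responses to KCl differed between neurons without Smarcc2 and non-targeting neurons by the interaction test of limma, called in both readings for regions. The summit response was higher without Smarcc2 by 1.27 at the region nearest to Rpl14, and by 1.12, 0.91 and 0.90 at 3 regions of Cdk11b. It was lower at an end of Tmem134 (−1.57), near Pla2g4d (−1.47), in Nek11 (−1.13) and at the region nearest to Tars (−0.99). The Rpl14 and Tars regions had no summit in the trimmed list of any of the 4 libraries without Smarcc2. These score differences thus came from the non-targeting libraries, and summits below the cut were not counted. By interval, the differences at Rpl14 and the first Cdk11b region were not called on leaving out any 1 of the 4 libraries. Those near Pla2g4d and in Nek11 were lost without unstimulated library 2 or KCl library 1. Near Tars the call was lost without unstimulated library 1, unstimulated library 2 or KCl library 1.

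By gene body cover, 9 genes differed from both non-targeting neurons and the wild-type add-back. The difference from non-targeting neurons was 54.6 points at Cdk11b, 17.0 at Etf1, 16.5 at Mllt11, 15.7 at Rab6a, 7.68 at Tra2b, 3.91 at Dppa2, 2.62 at Cstf3, −6.39 at Arrdc5 and −79.3 at Smim22. At Dppa2, in lists of equal length, the 4 libraries without Smarcc2 had 0% cover, and the unstimulated non-targeting libraries 3.80% and 4.03%. The call at Mllt11 was lost on leaving out any 1 knockout library (adjusted p up to 0.0857), as was that at Arrdc5 (up to 0.108), and that at Cstf3 was lost without unstimulated library 1 or KCl library 2 (up to 0.0847). With all deposited intervals, of the calls for these 9 genes only that of Cdk11b against non-targeting neurons remained. No explanation was tested for any of these.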

How the results depend on the processing

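With the 4 libraries alone, 700 regions rose and 81 fell by interval and 0 and 0 by summit; cover rose in 111 and fell in 45 gene bodies, in 139 and 176 windows past the 3′ end and in 64 and 31 before the start. By summit, 27241 of these tests had an unadjusted p under 0.05 in limma, the only tool run. Taking summits in place of intervals gave 6390 falls, 419 differences above non-targeting neurons and 321 above and 155 below the add-back. Lists of 30000 gave 1965 falls by interval, 822 rises and 897 falls by summit, of which 624 and 720 were among the 11699 main summit calls; 3611 of those were not tested and 4349 had no change, with no summit in the shorter lists, and 0 turned. They gave 388 and 382 differences from non-targeting neurons and 333 and 168 from the add-back (above and below). For cover they gave 395 rises and 129 falls in bodies, 129 and 110 past the 3′ end, 37 falls before the start, and 47 and 80, and 46 and 34, differences from the 2 genotypes. Lists of 75000 gave 203 falls in bodies, 219 rises and 257 falls past the 3′ end, 57 falls before the start, and 38 and 14 lower responses. All deposited intervals gave 4 and 0, and 0 and 0, differences in bodies. With the interval number as a covariate, 2351 regions fell by interval and 4213 by summit, and cover fell in 128 bodies, 256 windows past the 3′ end (301 rose) and 50 before the start. A −log10 q of at least 5 gave 3537 rises and 4139 falls by summit, and 818 and 672, and 688 and 375, differences. Scoring over the shortest list gave 181 and 266, and 176 and 126, an overlap of at least 50% of the window 276 and 442, and 234 and 203, and fits of only 8 libraries 115 and 536, and 210 and 197, with 6 lower bodies against the add-back. The cause of these shifts was not tested.

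Leaving out 1 of the 4 libraries gave 2316 to 2838 rises and 987 to 1530 falls by interval, 2771 to 4689 and 2498 to 4182 by summit, 60 to 117 and 181 to 194 differences from non-targeting neurons, and 81 to 154 and 58 to 85 from the add-back. For cover, the ranges were 333 to 456 rises and 132 to 230 falls in bodies, 227 to 290 and 296 to 502 past the 3′ end, 125 to 262 and 62 to 97 before the start, and 8 to 28 and 5 to 27, and 8 to 36 and 2 to 7, differences from the 2 genotypes. A replicate block was put on the title numbers, which are not known to pair the libraries. With it, 6209 regions rose and 4831 fell by interval and 5788 and 7857 by summit, of which 5349, 3646, 5169 and 6234 were among the main calls. Among the regions named one by one, 1163 results kept direction and side of the threshold, 149 lost the call, 2 gained it and 5 changed sign, all uncalled: Atf3 (−0.093) and Vgf (−0.013) by summit, and Crem (−0.27) with the covariate, −0.36 without unstimulated library 2 and −0.25 without KCl library 2, with a range of −0.36 to 0.43 on leaving out 1 library. Cover differences of the 9 named genes from the 2 genotypes kept their call in 96 of 180 refits, lost it in 78 and turned in 6, all uncalled: Tra2b against non-targeting neurons with lists of 75000 and 30000 (−0.32 points each), and, with lists of 30000, Rab6a (−0.76 and −0.28) and Etf1 (−1.23 and −0.015) against each genotype. Depth limits the low end: scores near 0 rest on the weakest peaks of a list.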

Other observations

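The 20 chaperone genes, chosen after their values were seen, changed in part. Cover of their bodies rose in 8 and fell in 1 without Smarcc2, and rose in 9 and fell in 0 in non-targeting neurons, against 3.72% and 2.39% of all bodies without Smarcc2. Dnajb1, a cochaperone of Hsp70, went from 32.6% and 26.5% to 100% and 100% over its body, and from 5.68% and 0% to 100% and 100% over the 5 kb past its 3′ end. Hsp90aa1, which encodes a cytosolic Hsp90, went from 29.9% and 25.9% to 97.5% and 99.2%, Hspa8, a constitutive Hsp70 gene, from 45.3% and 36.6% to 94.8% and 95.4%, and Hspa5, the Hsp70 of the endoplasmic reticulum, from 59.1% and 59.3% to 100% and 100%. Members of the same list stayed near their starting cover: Hspa1a had 4.29% and 4.86% before and 4.15% and 3.22% after (adjusted p = 0.64), and Hspd1 12.7% and 13.9% before and 13.4% and 16.4% after (adjusted p = 0.43). Stip1, a cochaperone that links Hsp70 to Hsp90, fell from 9.56% and 9.51% to 5.37% and 4.79% (−4.46 points, adjusted p = 0.00019).

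Among the largest rises in cover outside the activity genes were Syt4, a synaptotagmin gene (14.2% and 14.8% to 94.6% and 93.2%), and Slc2a1, a glucose transporter gene (10.5% and 9.06% to 92.0% and 74.4%). Past its 3′ end, Srsf5, a splicing factor gene, went from 5.56% and 12.2% to 98.1% and 100%, and Rgs4, a regulator of G protein signaling, from 5.32% and 5.06% to 90.5% and 83.8%.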
